A study of Homo sapiens with 6 samples.

Results

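YAP, a transcriptional coactivator, its DNA-binding partner TEAD1, the upstream kinase LATS2, 3 LIM and motin scaffold proteins and 4 known target genes were followed across 6 microarrays of HSC3 cells, a human tongue squamous carcinoma line. The 10 genes are YAP1, TEAD1, LATS2, AMOTL1, AMOTL2, AJUBA, CCN1 (also CYR61), CCN2 (also CTGF), ANKRD1 and AXL. They were chosen by name, with earlier results of these data known. A probe belonged to a gene when the platform table or the probe's sequence accession gave that symbol. In all, 13 of the 53103 gene probes masked on no array were named for 9 of the 10 genes, out of 18757 named genes. No probe is named here for YAP1. ANKRD1 was near background on all 6 arrays, 7 genes had a good spot on all 6, and CCN2 had a good spot on 5.

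The arrays are 1-colour CodeLink arrays labelled with Cy5, 1 for each condition: cells labelled control, and cells given siRNA to LEMD1, MIA, MIA2, TANGO or MATE2. The deposited design names a control siRNA, while the methods call the control cells untreated. The gene symbols behind the labels TANGO and MATE2 are MIA3 and SLC47A2. All 5 comparisons share the control array, and no condition has a second array, so there is no replicate check and no test between conditions. A change of at least 2-fold, a log2 ratio of 1 in size, between spots flagged good by the scanner on both arrays was used as a fixed rule. As RNA came from whole cultures, fewer cells that express a gene and less RNA per cell cannot be told apart.

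The normalized signal of LEMD1 was 277.9 for control, and it was at least 10.1-fold lower, near background, on the array labelled LEMD1 siRNA. It was also at least 6.57-fold lower on the array labelled MIA2 siRNA, and higher than control on the arrays labelled TANGO and MATE2 siRNA, at 3192 and 1011. The brightest probe of MIA2 itself was at 155 on control and 169 on the array labelled MIA2 siRNA. The other probe of MIA2 was near background on all 6 arrays. SLC47A2 was at 1509.8 on control, 59.0 on the array labelled TANGO siRNA and 79.6 on the array labelled MATE2 siRNA. MIA was near background on all 6 arrays and no probe is named here for MIA3. LEMD1 was thus near background on the arrays labelled LEMD1 and MIA2 siRNA, and SLC47A2 was low on those labelled TANGO and MATE2 siRNA. These signals do not tell the arrays of either pair apart. The 5 siRNA arrays are therefore named by their labels only, and are called below the arrays labelled LEMD1, MIA, MIA2, TANGO and MATE2. Good spots numbered 27545 to 30628 per array. Of 9 squamous epithelial markers, 7 had a named probe, and each of these was good on all 6 arrays. Their levels moved with the arrays, and the basal keratin KRT14 ranged from 309 on the array labelled TANGO to 16779.6 on the array labelled MIA2. On the array labelled TANGO 1 of 7 was at least 2-fold lower, KRT14, against 9.09% of named genes. KRT5, KRT16 and DSG3 were higher there, 3 of 7, against 5.57%. KRT5 and KRT14 were higher on the arrays labelled LEMD1 and MIA2, 2 of 7, against 2.03% and 3.29%. On the array labelled MATE2 4 of 7 were higher, KRT5, KRT16, KRT17 and DSG3, against 5.95%. Of 8 markers of other cell types 6 had a usable probe, and CDH5 of endothelium and PTPRC of leukocytes were near background on all 6 arrays, while the probes taken for PECAM1 and COL1A1, markers of endothelium and fibroblasts, were good on all 6, at 338 to 528 and 142 to 296. CD3E of T cells was near background on the array labelled TANGO and good on the other arrays, at 41.3 to 79.7. COL1A1 was at a log2 ratio of 1.06 on the array labelled MATE2, with its other probe at 0.37, and COL1A2, near background on control, was at least 2.25-fold higher there by the probe taken. By its other probes COL1A2 was at 40.8 and 32.7 on control, both near background. They were at 48.8 and, near background, 28.4 on the array labelled MATE2. The part of these marker changes in the results below was not tested.

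In the Hippo pathway, the MST and LATS kinases phosphorylate YAP and its relative TAZ, which keeps them out of the nucleus. When the kinases are inactive, YAP and TAZ enter the nucleus, bind TEAD proteins on DNA and switch on genes such as CCN1, CCN2, ANKRD1, AMOTL2 and LATS2. AMOTL2 and LATS2 in turn restrain YAP, so they are both targets and feedback inhibitors. In squamous epithelia the pathway is known for its part in basal cell growth and in responses to cell density and tension.

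Promoter windows of RefSeq (build GRCh38.p14) matched 8 of the 10 genes with 11 windows, and were searched for CATTCC on either strand, which reads GGAATG on the other and is the core of the TEAD site. CCN1 and TEAD1 had no window and were not searched. The sequences are shown because CCN2 and ANKRD1 are textbook TEAD targets and because AMOTL2 is a member that was low on several arrays. Capitals mark the matches. The CCN2 window lies at chr6:131951373-131951622 and the ANKRD1 window at chr10:90921088-90921337, both on the minus strand and both the 250 bases before the start. The piece of 30 bases from AMOTL2, at its second annotated start, lies at chr3:134374499-134374528 on the minus strand. The piece of 30 bases from YAP1 lies at chr11:102110273-102110302 on the plus strand.
CCN2: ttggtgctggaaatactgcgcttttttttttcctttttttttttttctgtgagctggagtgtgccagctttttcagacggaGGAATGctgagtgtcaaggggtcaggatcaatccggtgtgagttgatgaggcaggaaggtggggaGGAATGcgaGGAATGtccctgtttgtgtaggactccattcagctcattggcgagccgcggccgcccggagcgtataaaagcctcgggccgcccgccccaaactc
ANKRD1: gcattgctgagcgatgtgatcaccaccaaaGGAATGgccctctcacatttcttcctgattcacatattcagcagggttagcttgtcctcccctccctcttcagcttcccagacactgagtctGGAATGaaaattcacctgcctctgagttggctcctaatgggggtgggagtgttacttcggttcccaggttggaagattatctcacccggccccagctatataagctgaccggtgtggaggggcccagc
AMOTL2: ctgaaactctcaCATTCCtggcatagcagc
YAP1: cgggagtgtgcaGGAATGtagcaacttgca
In CCN2 the matches began 169, 104 and 95 bases before the start, at positions -169, -104 and -95, and in ANKRD1 at -220 and -128. The single match of AMOTL2 began at -69 and that of YAP1 at -162. Among 35116 windows of the same 250 bases, 11.9% held at least 1 match, 0.94% at least 2 and 0.0826% at least 3. Of the 11 windows of these genes 6 held a match. The CArG box, the motif of the serum response factor, was in none of the 11, against 1.16% of all windows. TGANTCA takes any middle base and is looser than the AP-1 motif, which has C or G there. It was in 1 window, that of ANKRD1, against 6.57%. The match in ANKRD1 has T in the middle, so it is not the AP-1 motif in its strict form. The CArG and TGANTCA patterns read the same on either strand, and no match of TGANTCA overlaps a CATTCC match in ANKRD1. A match describes these letters in these windows alone.

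Among the 7 members good on all 6 arrays, CCN1 had the widest range between arrays. CCN1 encodes a secreted matricellular protein that binds integrins. Its normalized signal was 1305 on control, 349 on the array labelled LEMD1, 1202 on that labelled MIA, 329 on that labelled MIA2, 108 on that labelled TANGO and 487 on that labelled MATE2. It was thus high on the control array and the array labelled MIA and lower on the other 4. The log2 ratios to control were -1.90, -0.12, -1.99, -3.60 and -1.42 in the same order of siRNA arrays. The fall on the array labelled TANGO was 12.1-fold, from a bright spot to one well above the lowest good signal of that array, 31.4. Under the alternative settings given below, the log2 ratio of CCN1 there lay between -3.64 and -3.03. The arrays labelled LEMD1 and MIA2 differed from each other by 1.06-fold, against a robust SD of the log2 ratio of 0.36 over all named genes between these arrays. The control array and the array labelled MIA differed by 1.09-fold, with a robust SD of 0.25.

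CCN2 encodes connective tissue growth factor, the closest textbook companion of CCN1 as a YAP target, but its levels were ordered differently. Its signal was 178 on control, 169 on the array labelled LEMD1, 176 on that labelled MIA, 157 on that labelled MIA2, 26.3 and near background on that labelled TANGO, and 40.8 on that labelled MATE2. It was close to control on 3 siRNA arrays, including those labelled LEMD1 and MIA2, on which CCN1 was 3.74-fold and 3.97-fold lower, and low on the arrays labelled TANGO and MATE2. The log2 ratios were -0.08, -0.02 and -0.19 on the arrays labelled LEMD1, MIA and MIA2 and -2.13 on that labelled MATE2. For the array labelled TANGO the fall was at least 5.68-fold. The good spot on the array labelled MATE2 was not far above the lowest good signal there, 31.4, and its log2 ratio was -1.19 without background correction.

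ANKRD1 encodes a nuclear ankyrin repeat protein first known from heart muscle. Its signal was 8.37 on control, 14.4, 4.74, -5.03, 0.127 and 6.08 on the arrays labelled LEMD1, MIA, MIA2, TANGO and MATE2, all below the lowest good signal of 27.5 to 38.6. These values have no order and no ratio is given. AXL encodes a receptor tyrosine kinase for the ligand GAS6. Its signal was 148 on control and 196, 175, 201, 205 and 202 on the arrays in the same order. It was higher than control on all 5, by 1.18-fold to 1.39-fold, and passed the 2-fold rule on none.

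**Figure D1:**
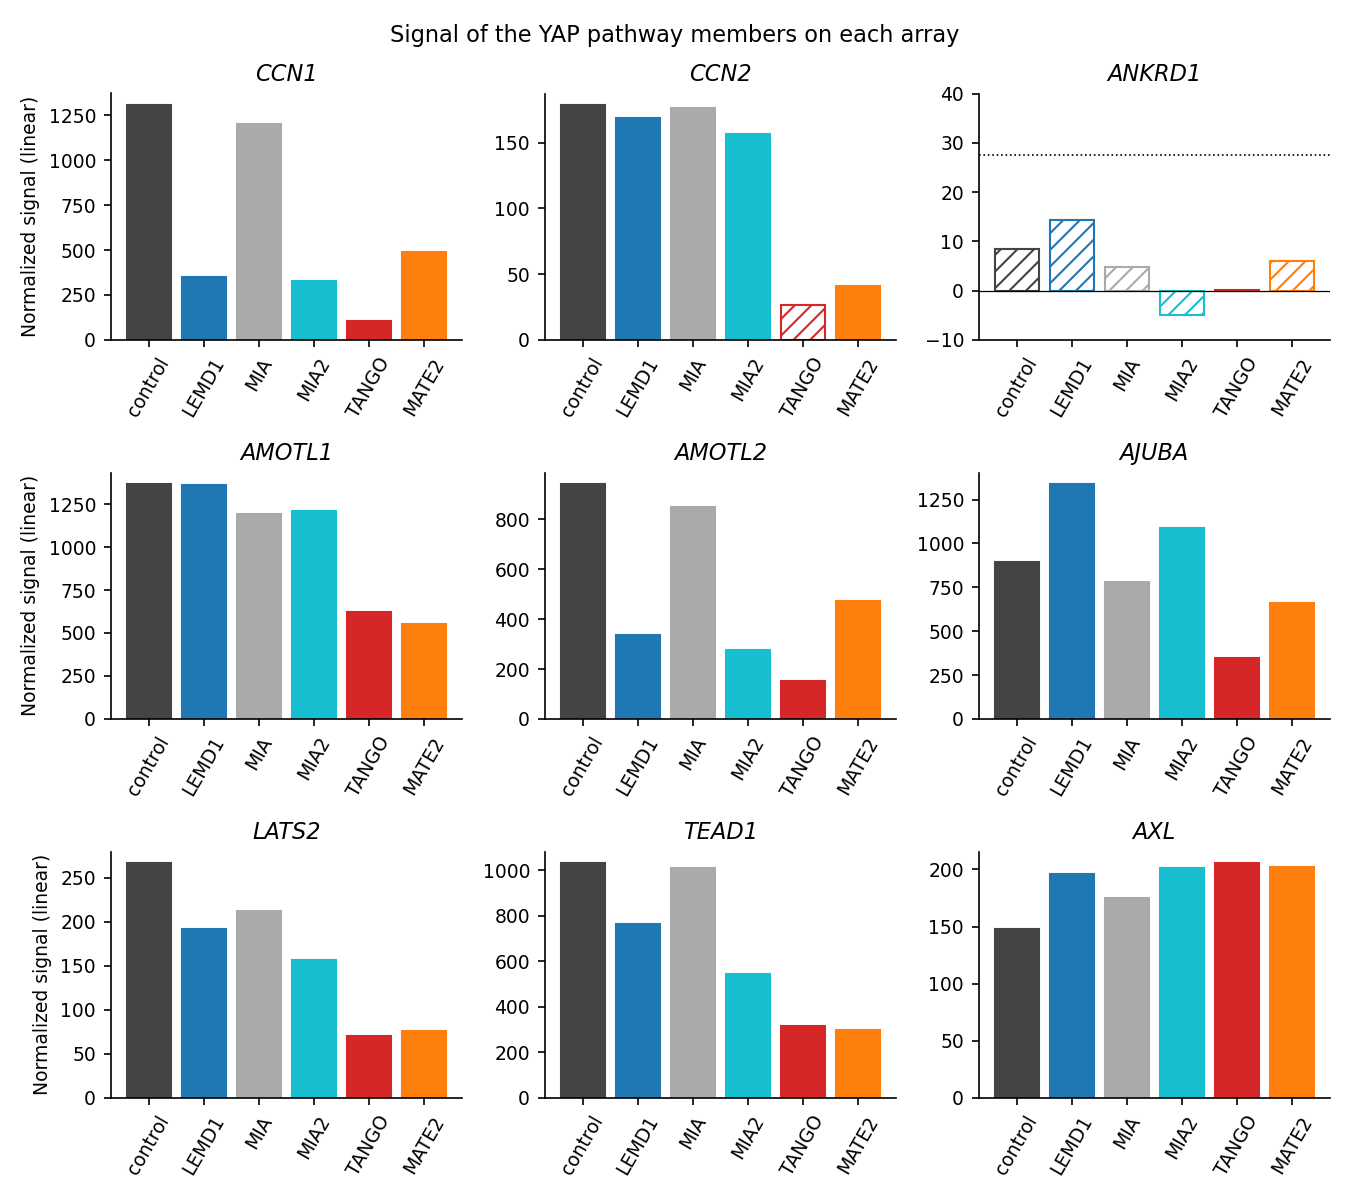
Normalized signal (y axis, linear scale, different for each panel) of the probe taken for 9 genes on the 6 arrays (x axis, named by the siRNA on the label). Filled bars are good spots and hatched bars are spots near background. The dotted line for ANKRD1 is 27.5, the lowest good signal of any array. CCN1 and AMOTL2 are low on 4 siRNA arrays, and CCN2, AMOTL1, LATS2 and TEAD1 are lowest on the arrays labelled TANGO and MATE2.

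AMOTL2, a motin family scaffold that holds YAP in the cytoplasm and is itself a YAP target, followed CCN1 more closely than its relative AMOTL1. Its signal was 940.4 on control and 336, 847, 275, 152 and 472 on the arrays labelled LEMD1, MIA, MIA2, TANGO and MATE2. As for CCN1, the array labelled TANGO was lowest and the array labelled MIA was near control. The log2 ratios were -1.48, -0.15, -1.78 and -2.63 on the first 4. The array labelled MATE2 was 1.99-fold lower, just short of the 2-fold rule.
AMOTL1 encodes a scaffold of the same family. Its signal was 1365 on control and 1358, 1189.8, 1207, 621 and 551 on the same arrays. It was close to control on the first 3 and lower on the arrays labelled TANGO and MATE2, by 2.20-fold and 2.48-fold. Against the array labelled MIA in place of control, the log2 ratio on the array labelled TANGO was -0.94.
AJUBA encodes a LIM domain protein that inhibits the LATS kinases and joins cell junctions. Its signal was 892 on control and 1338, 778, 1087, 346 and 663 on the same arrays. It was the only one of the 8 genes to be above control on the array labelled LEMD1, at a log2 ratio of 0.58, and below it by 2-fold on another, at -1.37 on the array labelled TANGO. Its log2 ratio on the array labelled MATE2 was -0.43.

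LATS2, the kinase that phosphorylates YAP and is induced by it, had a signal of 266 on control and 191, 213, 157, 70.6 and 76.5 on the arrays labelled LEMD1, MIA, MIA2, TANGO and MATE2. It was below control on all 5 arrays, and by at least 2-fold on the arrays labelled TANGO, 3.77-fold, and MATE2, 3.49-fold. Without background correction its log2 ratio on the array labelled TANGO was -1.29, in place of -1.92. On the array labelled MATE2 its log2 ratio was -1.80, and lay between -1.85 and -1.24 under the alternative settings given below. On those labelled LEMD1 and MIA2 the log2 ratios were -0.48 and -0.76.
TEAD1, the DNA-binding partner of YAP, had a signal of 1029.7 on control by the probe taken, and 763, 1009.8, 545, 314 and 299 on the same arrays. The fall was 3.28-fold on the array labelled TANGO and 3.44-fold on that labelled MATE2. TEAD1 has 5 named probes, of which 4 were good on all 6 arrays, and they did not move alike. Of the other 3, the brightest had log2 ratios of -0.37 and -0.09 on the arrays labelled TANGO and MATE2, the next -0.01 and -0.08, and the dimmest -0.94 and -0.99. The mean over the 4 probes was -0.76 and -0.74, so the fall of TEAD1 by 2-fold holds for 1 probe of 4. Probes of a gene can read different transcripts, and the part of transcript choice was not tested.

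**Figure D2:**
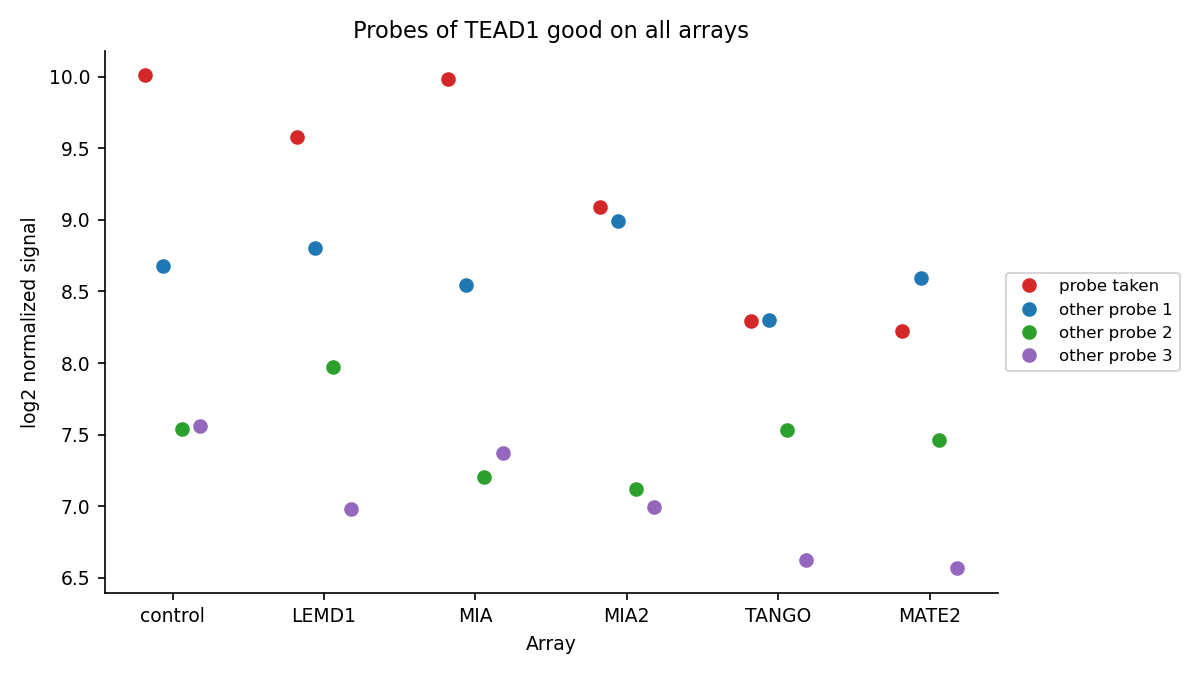
Log2 normalized signal (y axis) of the 4 probes of TEAD1 that were good on all 6 arrays (x axis, named by the siRNA on the label); points of an array are set side by side. The probe taken, in red, is 3.44-fold lower on the array labelled MATE2 than on control, while other probe 2 lies at 7.54 and 7.46.

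The members thus differed in the arrays on which they were low. The members and the gene lists below were chosen with earlier results of these data known. The shares of all named genes beside their counts are therefore no test of enrichment. With LEMD1 as the label, 2 of 8 measured members were at least 2-fold lower, CCN1 and AMOTL2, where 3.98% of 12924 named genes were lower. The same 2 of 8 were lower on the array labelled MIA2, where 5.21% of named genes were. Members lower on the array labelled TANGO were 6 of 7, all but AXL, beside the bound of CCN2, where 9.09% of named genes were lower. Members lower on the array labelled MATE2 were 5 of 8, CCN1, CCN2, AMOTL1, LATS2 and TEAD1, where 11.7% of named genes were. TEAD1 counts on the arrays labelled TANGO and MATE2 by the probe taken only. The array labelled MIA had 0 of 8 lower, where 0.258% of named genes were. No member was at least 2-fold higher on any array, where 2.03%, 0.391%, 3.29%, 5.57% and 5.95% of named genes were higher on the arrays labelled LEMD1, MIA, MIA2, TANGO and MATE2. The median log2 ratio of the measured members was -0.26, -0.13, -0.48, -1.71 and -1.36 in that order, and the median of all named genes was -0.04 to -0.01.

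**Figure D3:**
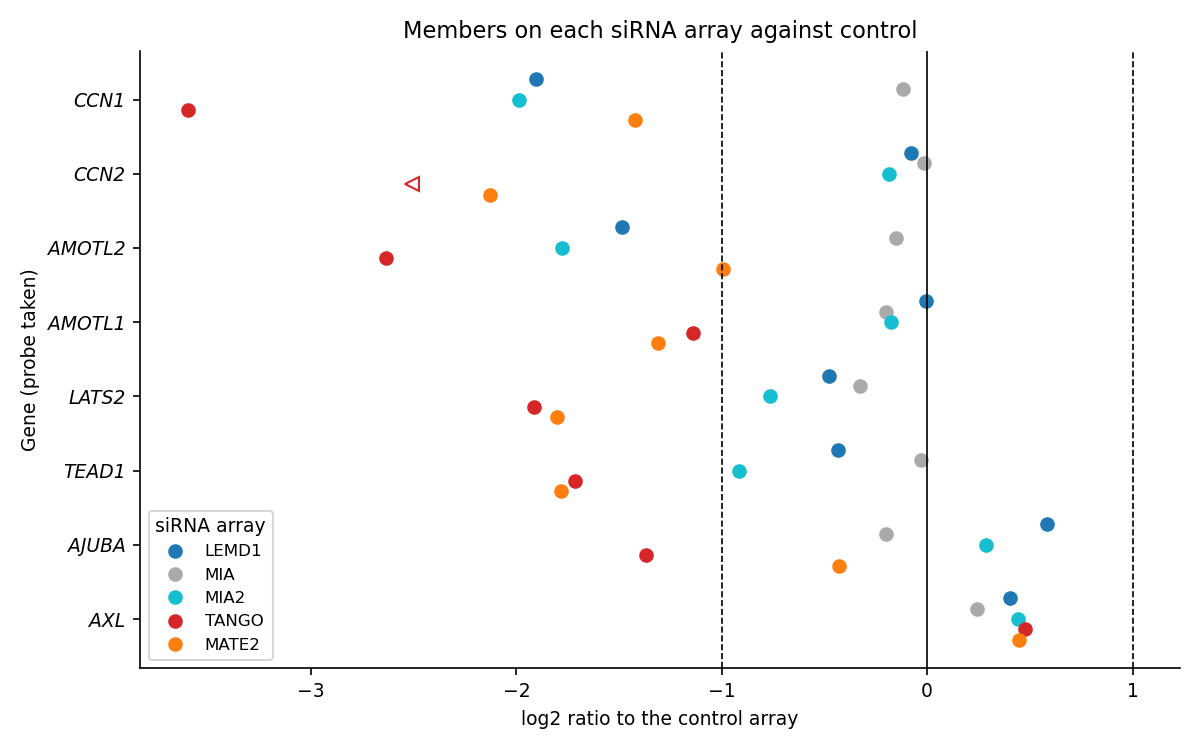
Log2 ratio to the control array (x axis) of the 8 genes with a good spot on control (y axis), one point for each siRNA array. The open triangle is a bound, at least 5.68-fold lower, for CCN2 on the array labelled TANGO. Dashed lines mark log2 ratios of -1 and 1. CCN1 and AMOTL2 lie left of -1 on the arrays labelled LEMD1, MIA2 and TANGO, and AXL lies right of 0 on every array.

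The arrays labelled LEMD1 and MIA2, and those labelled TANGO and MATE2, were also set against each other directly, a comparison added after the values were seen. Between the arrays labelled LEMD1 and MIA2, 0 of 8 members differed by 2-fold, where 0.299% of 12725 named genes were lower on the array labelled LEMD1 and 0.605% higher. The largest difference was that of TEAD1, with a log2 ratio of 0.48. Between the arrays labelled TANGO and MATE2, 2 of 7 members differed by 2-fold, both lower on the array labelled TANGO, where 5.9% of 12702 named genes were lower and 6.73% higher. CCN1 was 4.53-fold lower and AMOTL2 3.11-fold lower, AJUBA was 1.92-fold lower, and CCN2, near background on the array labelled TANGO, was at least 1.30-fold lower. AMOTL1, LATS2, TEAD1 and AXL differed between these arrays by 1.02-fold to 1.13-fold, within the robust SD of the log2 ratio of 0.57 over all named genes. CCN1 and AMOTL2 thus separated the arrays labelled TANGO and MATE2, and AMOTL1, LATS2 and TEAD1 did not.

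**Figure D4:**
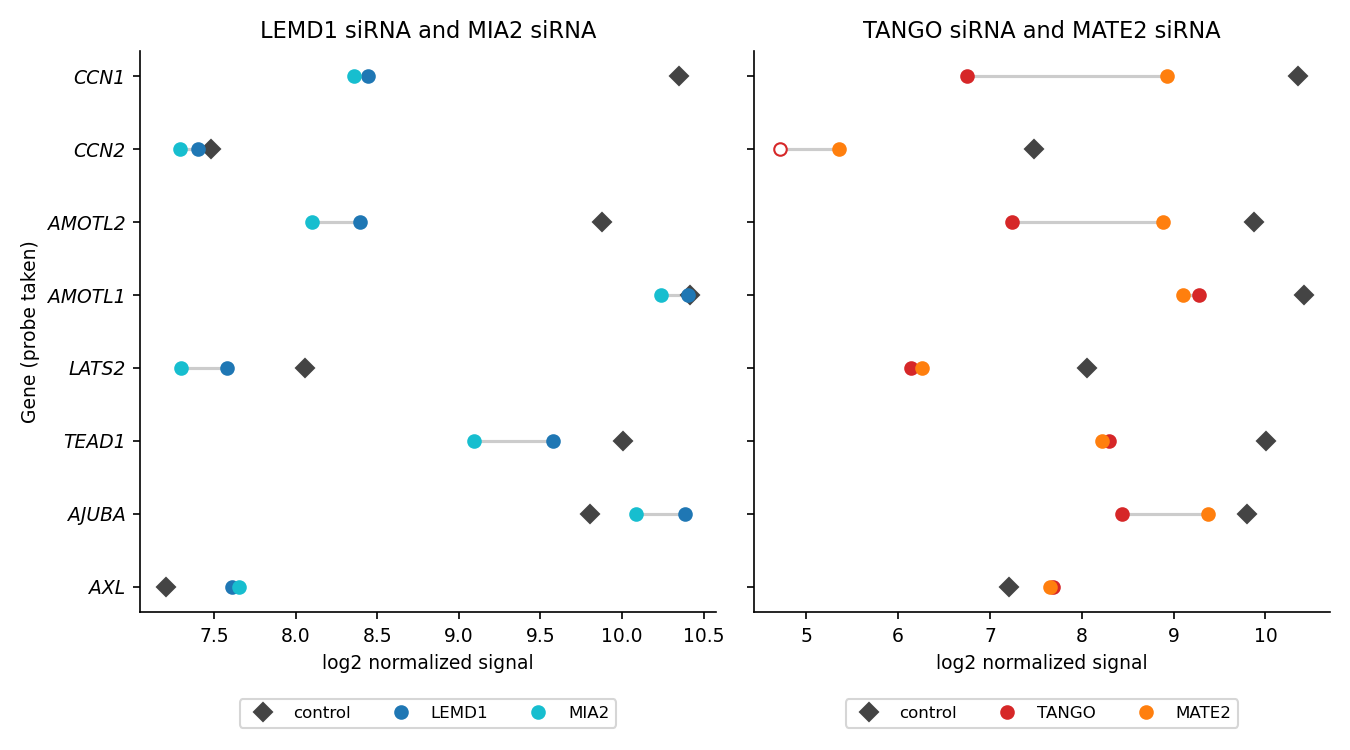
Log2 normalized signal (x axis, with a different range in each panel) of 8 genes (y axis) on the arrays labelled LEMD1 and MIA2 (left) and TANGO and MATE2 (right), with the control array as diamonds; the open point is near background. Grey lines join the siRNA arrays of a panel. In the right panel the lines of CCN1 and AMOTL2 are long, at 4.53-fold and 3.11-fold, and those of AMOTL1, LATS2, TEAD1 and AXL are short.

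Of 22 genes of a list of YAP and TAZ targets, 16 are not among the members above. The array labelled LEMD1 had 4 of 13 measured lower, GADD45A, a stress response gene, at a log2 ratio of -2.39, IGFBP3, a binding protein of insulin-like growth factors, at -1.57, F3, tissue factor, at -1.43 and NT5E, an ecto-enzyme that makes adenosine, at -1.17, where 3.98% of all named genes were lower. The array labelled MIA2 also had 4 of 13 lower, against 5.21% of named genes, GADD45A at -2.06, F3 at -1.79, MYOF, a membrane repair protein, at -1.57 and IGFBP3 at -1.55. None of 13 was lower on the array labelled MIA, against 0.258%.
On the array labelled TANGO 6 of 12 were lower, against 9.09% of named genes, the secreted matrix protein CCDC80 at -2.79, F3 at -2.43, IGFBP3 at -2.42, NT5E at -2.09, FJX1 at -1.30 and MYOF at -1.19. CRIM1, a membrane protein that binds bone morphogenetic proteins, was at least 5.28-fold lower there. On the array labelled MATE2 3 of 11 were lower, against 11.7% of named genes, MYOF at -3.01, F3 at -2.50 and FJX1 at -1.28, NT5E was at least 8.43-fold and CRIM1 at least 5.28-fold lower, and GADD45A was higher at 1.51. The other probe of NT5E, dimmer and good on all 6 arrays, was at -0.24, -0.26 and 0.25 on the arrays labelled LEMD1, TANGO and MATE2, so each fall of NT5E by 2-fold holds for 1 probe of 2. FOXF2, a transcription factor, was at least 2.35-fold higher on both the array labelled TANGO and that labelled MATE2. The median log2 ratio of the measured genes was -0.29, -0.11, -0.85, -1.05 and -0.60 on the arrays labelled LEMD1, MIA, MIA2, TANGO and MATE2. Set against the array labelled MATE2, the array labelled TANGO had 3 of 12 measured genes lower, against 5.9% of named genes. They were CCDC80 at a log2 ratio of -2.34, GADD45A, and IGFBP3, which was 3.00-fold lower. MYOF was 3.54-fold higher, 1 of 12, against 6.73%. Of the 12 genes 6 were below and 6 above, with a median log2 ratio of -0.01, while CCN1 and AMOTL2 were both lower.

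Of 17 Hippo kinases and scaffolds, 16 are not members. The array labelled LEMD1 had 2 of 14 measured at least 2-fold lower, MAP4K4, a kinase that acts on LATS, at -1.46 and WWC2, 2.01-fold lower, against 3.98% of named genes, and TAOK1 was higher at 1.13. The other probes of TAOK1 were at -0.34 and -0.10 there. For the array labelled MIA2, 0 of 14 were lower, against 5.21% of named genes, and TAOK1 was higher at 1.63, with its other probes at -0.61 and -0.00. On the array labelled TANGO 4 of 14 were lower, against 9.09%, TAOK3 at -1.61, MOB1B, a LATS coactivator, at -1.48, MAP4K4 at -1.34 and TAOK1 at -1.02, with its other probes at -0.93 and -0.45. On the array labelled MATE2 5 of 13 were lower, against 11.7%, TAOK3 at -1.94, MOB1A at -1.91, MAP4K4 at -1.58, FRMD6 at -1.20 and WWC2 at -1.15, and MOB1B was at least 4.66-fold lower. None of 14 passed the rule on the array labelled MIA. By the probe taken, WWC1 was within 2-fold of control on all 5 arrays. Its other probe was at 111 on control and 53.1, 95.4 and 68.6 on the arrays labelled LEMD1, MIA and MIA2. That probe was near background on the arrays labelled TANGO and MATE2, at 17.2 and 25.4. The MST kinase gene STK3, the scaffold gene SAV1 and NF2, the tumour suppressor merlin, stayed within 2-fold of control on all 5 arrays, LATS1 was near background on control, and the brightest probe of STK4 was flagged as irregular on control.

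**Figure D5:**
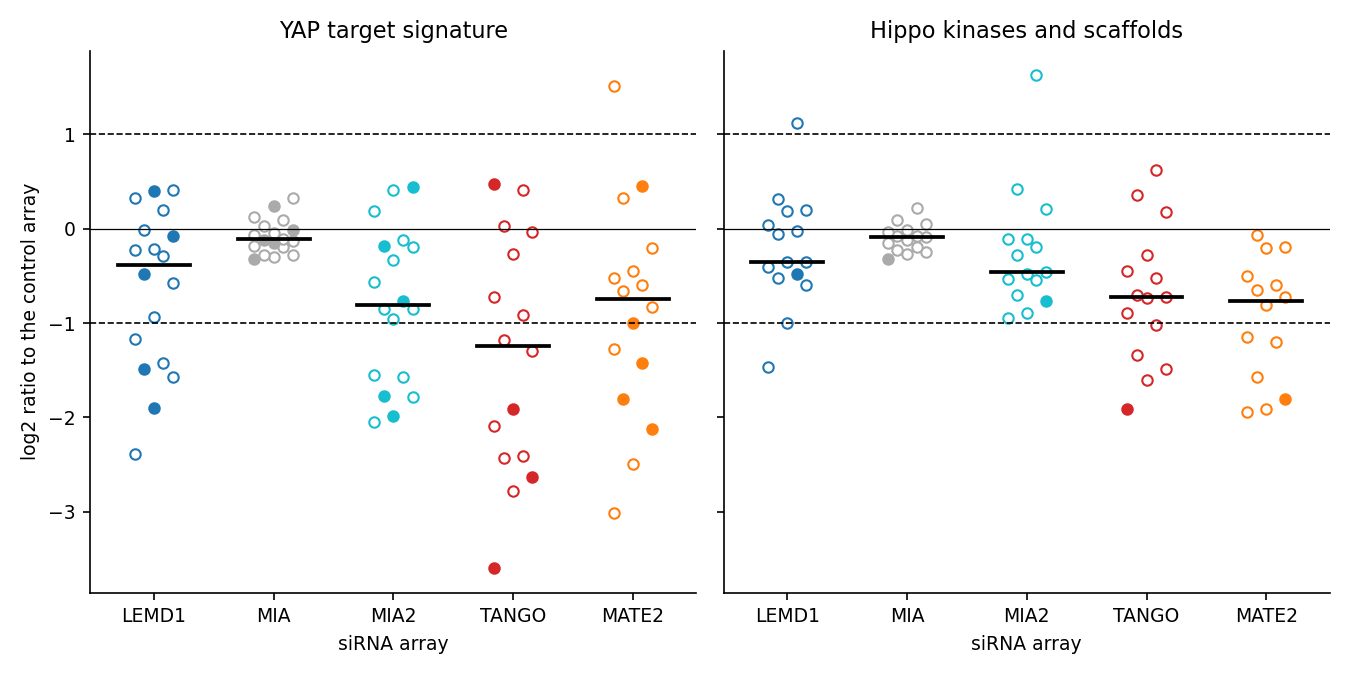
Log2 ratio to the control array (y axis) of the measured genes of the YAP target list and of the Hippo kinase and scaffold list for each siRNA array (x axis). Filled points are members described above, open points other genes of the list, black bars medians over both and dashed lines log2 ratios of -1 and 1. The array labelled MIA has a median of -0.11 in the target list, and the array labelled TANGO one of -1.24.

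Among YAP's partners, WWTR1, which encodes TAZ, was at 214 on control and at log2 ratios of -0.74, -0.00, -0.70, 0.49 and 0.68 on the arrays labelled LEMD1, MIA, MIA2, TANGO and MATE2, within 2-fold on all 5. TEAD2 and TEAD3 were within 2-fold of control on all 5 arrays, and TEAD4 was lower at -1.15 on the array labelled MATE2. VGLL1, a TEAD cofactor that competes with YAP, was at 265 on control, lower at -1.03 on the array labelled LEMD1 and at least 8.44-fold and 8.43-fold lower on those labelled TANGO and MATE2. Of the other motin and Ajuba relatives, AMOT was higher at 1.17 on the array labelled MATE2 by the probe taken, LIMD1 was within 2-fold of control on all 5 arrays, and WTIP was near background on all 6. The other probe of AMOT was near background on control and on the arrays labelled MIA and MATE2, and at least 2.41-fold, 2.01-fold and 1.79-fold higher than control on those labelled LEMD1, MIA2 and TANGO.

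The genes whose log2 ratios lay closest to those of CCN1 over the 5 siRNA arrays, among 11435 named genes good on all 6, were KLK10, TCF19, ETS1, CDCA5 and WNT7A. Their root mean square differences from CCN1 were 0.28, 0.36, 0.43, 0.44 and 0.49 on the log2 scale, and AMOTL2 came 6th at 0.52. For AMOTL2, a gene added to this search after its values were seen, the closest was IGFBP3 at 0.16. For CCN2 the search used the 4 siRNA arrays on which it was good, and VMA21, EED, MRI1, STX7 and JDP2 were closest, at 0.094 to 0.12. On the array left out, labelled TANGO, where CCN2 was at least 5.68-fold lower, the log2 ratios of these 5 genes were 0.06, -1.87, -2.41, -1.44 and -2.66 in that order, and VMA21 was close to control there. LATS2 came 311th at 0.42, AMOTL1 324th at 0.42, TEAD1 371st at 0.44 and CCN1 8773rd at 1.33, among 11436 genes. These ranks describe closeness on 6 arrays that share a control.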

How the data were processed

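The deposited scanner files give the intensity of each spot, exported per the file headers with CodeLink Expression Analysis 5.0.0.31312: the spot mean less the median of the local background, which held within 0.0001 on unmasked spots. The authors also deposited a table of linear intensity values, quantile normalized with the Microarray Data Analysis Tool. Quantile normalization of all spots gave 100% of its values above 1 within 1% plus 1. Here gene probes masked on any array (320) were left out, the rest were quantile normalized over 6 arrays in Python 3.11.15, values under 1 were set to 1, and log2 was taken. For a gene with several probes the brightest over the 6 arrays was taken. Where a spot was near background, the higher of its signal and the lowest good signal of its array gave a bound. Of 53423 gene probes, 23472 were named by the platform table, updated to current RefSeq symbols, 655 by accession, 905 carried several symbols and 28391 had no name. Normexp was run in limma 3.58.1. The ratio and the 2-fold rule were tested on simulated data.

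The members and the 11 gene lists were chosen with earlier results of these data known. The rule for other named genes took the siRNA targets, the 5 genes closest to CCN1 and to CCN2, and at most 12 list genes with the largest ratios. The latter were SLC47A2, KRT16, KRT14, DSG3, LEMD1, KRT5, MYOF, KRT17, FOS, CCDC80, F3 and IGFBP3. Other genes were named after their values were seen. Alternatives were other normalizations, background corrections, flag filters, probe summaries and comparators. The 6 arrays limit the precision.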

Additional observations from a re-analysis of the deposited data

How the results depend on the processing

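No paired analysis was possible because each condition has 1 array. The counts of members at least 2-fold lower or higher were computed again 104 times under the alternatives, and each stayed within 1.5 times the count reported. Many of these are counts of none: no member was 2-fold higher under any setting, nor lower on the array labelled MIA. The 15 log2 ratios at or past 2-fold were computed again 153 times; 150 stayed at least 2-fold lower and none changed sign. The exceptions were TEAD1 as the mean over its good probes, at -0.76 and -0.74 on the arrays labelled TANGO and MATE2, and AMOTL1 on the array labelled TANGO against the array labelled MIA, at -0.94. Some of the 153 could not differ from the ratio reported. Dropping the flag filter or keeping brighter probes leaves a ratio kept by the rule unchanged, as does the probe mean for a gene of 1 probe. The deposited table is itself quantile normalized. AMOTL2 on the array labelled MATE2 moved from 1.99-fold lower to a log2 ratio of -1.04 with each array scaled to its median. Near background the size depends on the correction: CCN2 on the array labelled MATE2 was at -1.30 with normexp, -1.19 with no background correction and -1.33 with 50 added, in place of -2.13, and LATS2 on the array labelled TANGO was at -1.29 with no background correction, in place of -1.92. Normalization without the arrays labelled TANGO and MATE2 was added after seeing the data. Without a filter on flags, ANKRD1 entered with values at or near the floor, which have no order.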

Other observations

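Some relatives of the members differed from them. In the CCN family of secreted matricellular proteins, CCN3 was at 60.3 on control and above it on all 5 siRNA arrays, at log2 ratios of 0.80, 0.58, 0.67, 1.08 and 0.81 on the arrays labelled LEMD1, MIA, MIA2, TANGO and MATE2. CCN5 was also above control on all 5, at 0.20 to 0.87. CCN6 was at -1.35 on the array labelled MATE2 and at least 3.52-fold lower on that labelled TANGO, and CCN4 was near background on all 6 arrays. Among the receptors and ligands of the AXL family, GAS6, the ligand of AXL, was at 426 on control and lower at -1.75 and -1.97 on the arrays labelled TANGO and MATE2, while AXL was at 0.47 and 0.45 there. PROS1, protein S, was higher at 2.06 on the array labelled TANGO and at -0.23 on that labelled MATE2.

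Of 16 target genes of the serum response factor and its cofactors, 9 were measured on the array labelled LEMD1, where the LIM protein gene FHL2 was lower at -1.27 and the AP-1 gene FOS higher at 2.83, against 3.98% of all named genes lower and 2.03% higher. The same genes passed the rule on the array labelled MIA2, at -1.22 and 2.16, against 5.21% lower and 3.29% higher. For the array labelled TANGO 10 were measured, the actin crosslinker gene FLNA was lower at -1.26 and FOS higher at 1.89, against 9.09% lower and 5.57% higher. By the probe taken, TPM1 was at 110 on control and 156 on the array labelled TANGO. The other probe of TPM1 was at 65.9 on control and 260 on that array. On the array labelled MATE2 4 of 10 were lower, against 11.7% of named genes, the actin genes ACTG1 at -1.26 and ACTB at -1.25, FLNA at -1.13 and FOS at -1.01. None of 9 passed the rule on the array labelled MIA. The median log2 ratio of the list was 0.11, 0.03, -0.20, 0.14 and -0.68 on the arrays labelled LEMD1, MIA, MIA2, TANGO and MATE2.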
